A study of Mus musculus with 20 samples.

Results

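Expression of 34 genes of glycolysis and the hypoxia response was followed in microglia and monocytes from mouse brains after stroke. The genes were taken by symbol from a list of 34 names. It covers the enzymes from hexokinase to lactate dehydrogenase, the sugar and lactate transporters and the kinases that steer the pathway. It also holds the oxygen sensors, Hif1a and a set of transcripts induced by low oxygen. Both deposited tables hold all 34 symbols, among 16536 genes in the table from Cxcr4-GFP mice and 16140 in the table from Cxcr4CreER mice. After a filter on low values, 27 members were tested in the first table and 33 in the second.

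Glycolysis splits glucose into pyruvate in the cytosol and yields ATP without oxygen, and lactate dehydrogenase turns the pyruvate into lactate so that the pathway can run on. When oxygen falls, prolyl hydroxylases (the Egln genes) stop marking the transcription factor subunit HIF-1α, encoded by Hif1a, for destruction, and HIF then binds hypoxia response elements of most glycolytic genes and of targets such as Ndrg1, Bnip3 and Adm. Activated monocytes and macrophages are known for raising glycolysis, also through HIF. Hif1a is controlled largely at the level of its protein, which was not measured here.

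The cells came from brains 3 days after permanent photothrombosis, a stroke model in which light and a dye close vessels of the cortex. In Cxcr4-GFP reporter mice, 4 libraries each were made of GFP-negative microglia and GFP-positive monocytes, in pairs from the same source: 2 pairs are of single animals, 1 is of 2 mice and 1 is of 5 pooled mice. In Cxcr4CreER mice, a line named for a Cre recombinase that needs tamoxifen, 3 libraries each were made of TdT-negative microglia and TdT-positive monocytes of control mice and of mice with conditional knockout of Cxcr4 (KO). The monocytes were thus chosen by a signal tied to Cxcr4, KO microglia are TdT-negative cells of KO animals, and no tamoxifen schedule, age, sex or further sort marker is given. Whether the tag BrKo in the titles of all Cxcr4-GFP libraries and of the KO libraries bears on the genotype of the reporter mice is not known here.

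Values are the authors' normalized counts, that is reads per gene divided by a size factor per library, and the 2 tables were scaled apart, so levels are compared within a table. Libraries held 0.617 to 14.9 M reads in the GFP table and 9.73 to 56.8 M in the Cre table. Detected genes were few in GFP monocytes 3 and in GFP microglia 3 and 4, with 3029 to 5598 detected genes, against 10422 to 14498 in the other 5 libraries of that table. The 10 microglia markers summed to 189617 to 305899 in control and 244558 to 304035 in KO microglia, and to 22539 to 38767 in monocytes of both genotypes; in the GFP table the sums were 15271 to 27356 against 793 to 3485, and GFP monocytes 3 had the monocyte receptor Ccr2 at 0. Monocyte markers, also 10, summed to 345270 to 402987 in Cre monocytes against 15100 to 21440 in Cre microglia. In the GFP table they summed to 8989 to 17939 in monocytes, with GFP monocytes 3 the lowest, against 305 to 493 in microglia. The replicates of the Cre table are single mice, and fold changes below are on the scale of log2(value + 1) with SE, n = 4 for the GFP and n = 3 for the Cre groups. Called genes are those with a limma p, adjusted by Benjamini-Hochberg across the tested genes of the table, under 0.05.

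The first question was how the pathway differs between monocytes and the resident microglia of control mice. Monocytes had more RNA of most enzymes of the lower pathway, at 1.96-fold to 3.08-fold the microglial level, and far more of the phosphofructokinase Pfkp, the hexokinase Hk1 and the hypoxia-induced genes Ndrg1 and Mxi1. Of 33 tested members 10 rose (30.3%) and 1, Pdk1, fell (3.03%), where 3.46% of all 12432 tested genes rose and 3.06% fell. The groups did not overlap for 16 members higher in monocytes (48.5%) and 1 lower (3.03%), against 9.60% and 12.5% of all tested genes. The median log2 fold was 0.9998 over the members and -0.24 over all tested genes. In bulk RNA, a difference in the amount per cell and a difference in the make-up of the sorted cells cannot be told apart.

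In KO mice the same contrast had 7 members higher (21.2%) and 2 lower (6.06%), with 3.85% and 2.98% of all tested genes as the background. There 15 members were higher without overlap (45.5%) and 4 were lower (12.1%), against 12.7% and 14.8% of all tested genes. The median log2 fold was 0.89 against -0.25 over all genes. Pgk1, Ndrg1, Aldoa, Pkm and Pfkp, 5 members, were called higher in both genotypes; the KO and control libraries of this table are separate mice but share 1 estimate of the spread. With the animal as a block, since some mice gave both populations, Pfkp lost its call in KO mice (limma adjusted p = 0.0512), and 4 of the 5 kept both calls. DESeq2 called 14 members in control mice, among them all 11, and 12 in KO mice, 8 of them among the 9. With edgeR 5 of the 11 (Aldoa, Ndrg1, Pdk1, Pgk1 and Pkm) and 4 of the 9 (Aldoa, Ndrg1, Pgk1 and Pkm) were called. How much single libraries weigh is shown by leaving them out. Without control microglia 1, 7 members were called in control mice, without control monocytes 1 there were 6, and without control monocytes 2 or control monocytes 3 there were 7. In KO mice 5 were called without KO microglia 1 or KO monocytes 2, 4 without KO microglia 3, 3 without KO microglia 2, and 2 without KO monocytes 1 or KO monocytes 3. Pgk1, Ndrg1, Aldoa, Mxi1 and Pkm were called in control mice in all 6 such fits, and Pgk1 and Ndrg1 in KO mice in all 6. With values scaled by total reads (CPM), the median of all genes moved to -0.40 in control and -0.48 in KO mice and that of the members to 0.82 and 0.65. Then 6 members were higher and 1 lower in control mice, and 2 higher (Pgk1 and Ndrg1) and 4 lower (Adm, Pfkfb4, Pfkfb3 and Hk2) in KO mice.

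The enzymes of lower glycolysis differed by similar amounts. All 8 genes from aldolase to lactate dehydrogenase (Aldoa, Tpi1, Gapdh, Pgk1, Pgam1, Eno1, Pkm and Ldha) had every control monocyte library above every control microglia library, and 6 of the 8 were called in control mice and 4 in KO mice. Pgk1, the phosphoglycerate kinase that makes the first ATP of the pathway, had the smallest p of all members in both genotypes. It was at 2978, 2599 and 4269 normalized counts in control microglia and at 10641, 10544 and 7085 in control monocytes. In KO mice it was at 3171, 3034 and 3695 in microglia and at 9927, 10422 and 10688 in monocytes. Each monocyte library lay above each microglia library, and KO and control monocytes overlapped. The log2 fold was 1.53 (SE 0.25, limma adjusted p = 0.00355) in control and 1.65 (SE 0.25, limma adjusted p = 0.00213) in KO mice.

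Promoters are shown for the called members with the smallest p that have an entry in RefSeq (GRCm38.p6). They run from 250 bases before to 50 bases after the start, to let the hypoxia response element be read. Ndrg1 has no entry. Adm is included by its p, though its call is not independent of the filter, as described below. Capitals mark ACGTG or GCGTG, the core of that element, on either strand (CACGT or CACGC when it lies on the other strand).
Pgk1, chrX:106186850-106187149, plus strand: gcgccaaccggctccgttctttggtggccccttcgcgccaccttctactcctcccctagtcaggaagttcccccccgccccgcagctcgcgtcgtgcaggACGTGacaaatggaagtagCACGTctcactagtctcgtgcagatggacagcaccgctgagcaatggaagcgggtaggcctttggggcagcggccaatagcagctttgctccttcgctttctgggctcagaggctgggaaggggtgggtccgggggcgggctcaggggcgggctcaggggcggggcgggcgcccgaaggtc
Aldoa, chr7:126800398-126800697, minus strand: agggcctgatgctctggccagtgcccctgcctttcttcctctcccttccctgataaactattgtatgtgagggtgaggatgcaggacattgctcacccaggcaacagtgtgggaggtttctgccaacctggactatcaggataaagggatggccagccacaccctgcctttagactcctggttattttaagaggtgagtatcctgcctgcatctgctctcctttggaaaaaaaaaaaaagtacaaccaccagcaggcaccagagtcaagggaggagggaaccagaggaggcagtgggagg
Mxi1, chr19:53310256-53310555, plus strand: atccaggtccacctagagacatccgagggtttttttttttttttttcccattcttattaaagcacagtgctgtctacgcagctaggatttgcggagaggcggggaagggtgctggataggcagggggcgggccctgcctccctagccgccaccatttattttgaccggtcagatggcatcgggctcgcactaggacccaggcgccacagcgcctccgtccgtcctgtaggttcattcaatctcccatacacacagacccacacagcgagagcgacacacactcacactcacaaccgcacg
Adm, chr7:110627407-110627706, plus strand: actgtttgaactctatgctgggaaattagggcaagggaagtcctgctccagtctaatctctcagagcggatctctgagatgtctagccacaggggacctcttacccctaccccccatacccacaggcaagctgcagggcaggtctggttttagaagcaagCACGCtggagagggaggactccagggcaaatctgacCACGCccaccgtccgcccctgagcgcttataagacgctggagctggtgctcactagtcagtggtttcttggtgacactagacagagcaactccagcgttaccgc
The Pgk1 promoter holds the core once on each strand, and the Adm promoter holds it at 2 places on the other strand. The windows shown of Aldoa and Mxi1, the most upstream of 3 listed starts each, hold none. For both genes another listed start holds 1 core. Among all 46 listed promoters of 31 members, 38 (82.6%) held at least 1 core, against 14380 of all 32851 promoters (43.8%), and 58.7% against 20.6% held 2 or more. The list was chosen as glycolytic and hypoxia-induced genes, and its promoters were counted whether or not the gene was called. The share is thus a description of the list and no result about the called genes. Member promoters also had more G and C, with a median of 63.2% against 52.7%, and the motif contains CG. Its share was not tested against promoters of the same composition. Matches per gene went up to 7 in Ldha and 5 in Bnip3 and Hk1, and were 0 in Gpi1 and Tpi1. Slc2a3, Ndrg1 and Bnip3l had no entry.

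Aldoa, the aldolase that splits the hexose, was at 3205, 4404 and 3104 in control microglia and 9494, 10406 and 7193 in control monocytes, and at 3055, 2673 and 3141 against 9064, 5122 and 5886 in KO mice. The groups were apart in both genotypes (log2 fold 1.34, SE 0.27, and 1.14, SE 0.27; limma adjusted p = 0.0118 and 0.0268). In KO mice the call held without KO monocytes 2 and was lost without each of the other 5 libraries of the contrast (limma adjusted p 0.0597 to 0.102 there).

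Pkm, the pyruvate kinase gene that ends the pathway, was at 2324, 2729 and 1401 in control microglia and 5180, 5622 and 5012 in control monocytes. In KO mice it was at 2816, 2564 and 2278 against 6839, 4608 and 5135. The monocyte values were again above every microglial value, by a log2 fold of 1.35 (SE 0.29, limma adjusted p = 0.0156) in control and 1.10 (SE 0.29, limma adjusted p = 0.0415) in KO mice. The KO call was lost without any 1 of the 6 libraries, with adjusted p up to 0.145.

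Tpi1, the triose isomerase, stood at 602, 2094 and 1197 in control microglia against 4493, 2798 and 3502 in control monocytes, and at 1712, 1503 and 1191 against 4624, 3227 and 2822 in KO mice. Gapdh, which makes the NADH of the pathway, stood at 13468, 8870 and 5700 against 18589, 17481 and 15690, and at 8123, 8292 and 8882 against 13265, 12389 and 12263. Pgam1, the phosphoglycerate mutase, stood at 2455, 1826 and 2110 against 3634, 5157 and 4282, and at 2058, 2628 and 1925 against 3846, 5270 and 3722. Between KO and control monocytes Gapdh was not called (log2 -0.45, SE 0.26, limma adjusted p = 0.858). Every KO monocyte library lay below every control one, but the share of all tested genes without overlap was not counted for that contrast. For all 3 genes monocytes lay above microglia without overlap in both genotypes. They were called in control mice only narrowly, with log2 folds of 1.62, 0.97 and 1.03 and limma adjusted p of 0.0444, 0.0480 and 0.0431, and in KO mice the folds of 1.26, 0.58 and 0.95 had adjusted p of 0.115, 0.244 and 0.0575. The control call of Tpi1 held only without control microglia 2 and that of Gapdh only without control microglia 1, and Pgam1 was not called without any 1 of the 6. With the animal as a block, Tpi1 and Gapdh lost their control calls (limma adjusted p = 0.0543 and 0.0572).

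Eno1, the enolase, was called in KO mice and not in control mice, and was not called in the test of that difference (the interaction term). It was at 2160, 2359 and 2744 in control microglia, 5600, 6180 and 8123 in control monocytes, 2786, 857 and 3005 in KO microglia and 9246, 5354 and 5573 in KO monocytes. Monocytes were above microglia throughout, with a log2 fold of 1.75 (SE 0.44, limma adjusted p = 0.0322) in KO and 1.44 (SE 0.44, adjusted p = 0.0781) in control mice; without KO microglia 2, the library at 857, the KO fold was 1.17 (adjusted p = 0.0649). Ldha, the muscle-type lactate dehydrogenase subunit, had levels 2.00-fold and 1.85-fold higher with limma adjusted p of 0.123 and 0.172. Several of these genes have processed pseudogenes or close paralogs in the mouse (Gapdh, Pgk1, Eno1, Ldha, Aldoa, Pkm, Tpi1 and Pgam1), so reads may be split with such copies.

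The upper pathway differed more by gene. Pfkp, the platelet-type phosphofructokinase, was at 103, 42.3 and 0.854 in control microglia and 1469, 1747 and 1019 in control monocytes, and at 174, 7.49 and 33.6 against 1748, 1457 and 1109 in KO mice. Its log2 fold was 6.09 (SE 1.38, limma adjusted p = 0.0215) in control and 5.25 (SE 1.38, limma adjusted p = 0.0421) in KO mice. Microglial values were low and spread widely while monocyte values were close together. The call was lost without control monocytes 1 or 2 (adjusted p = 0.0634 and 0.0607), and in KO mice it held only without KO microglia 1. Pfkl, the liver-type enzyme, was not called (log2 folds 0.93 and 1.19), and Gpi1, the hexose phosphate isomerase, had log2 folds of 0.72 and 1.14, with no overlap in KO mice only.

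Hk1, the hexokinase that most cells use, was at 6.33, 7.88 and 38.4 in control microglia and at 238, 428 and 441 in control monocytes, a log2 fold of 4.70 (SE 1.14, limma adjusted p = 0.0289). In KO mice it was at 64.7, 16.8 and 7.76 in microglia and at 25.2, 19.5 and 50.1 in monocytes. The control groups were far apart, and the KO groups overlapped (log2 fold 0.47, SE 1.14). The control call held only without control microglia 3, and adjusted p was up to 0.0878 without another library. Hk2, the hexokinase that HIF induces, was at 3637 to 6939 in control monocytes and 5778 to 6854 in control microglia, and Hk3, a myeloid hexokinase, at 518 to 845 and 507 to 1152; neither was called in either genotype.

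Counted per kilobase of the principal transcript (GENCODE M21), the families changed their make-up between populations. Hk2 made up 63.6% to 94.0% of hexokinase RNA in every Cre group, and Hk1 made up 5.25% to 11.05% in control monocytes against 0.117% to 1.54% in the other 3 groups. Pfkp made up 58.1% to 87.3% of phosphofructokinase RNA in monocytes of both genotypes and 0.406% to 51.3% in microglia, with Pfkl as most of the rest. Ldha made up 57.6% to 85.5% of the Ldha and Ldhb sum in monocytes and 12.5% to 25.9% in microglia. In that pair the larger move was in Ldhb, the heart-type subunit, which is no member of the list of 34. Ldhb was at 7057, 13399 and 11957 in control microglia and 1327, 2690 and 1285 in control monocytes (log2 fold -2.65, SE 0.45, limma adjusted p = 0.00431), and at 13358, 9324 and 7776 against 2394, 1203 and 781 in KO mice (log2 fold -2.92, SE 0.45, limma adjusted p = 0.00234). Aldoa made up 92.9% or more of the aldolase sum in each Cre library.

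**Figure D1:**
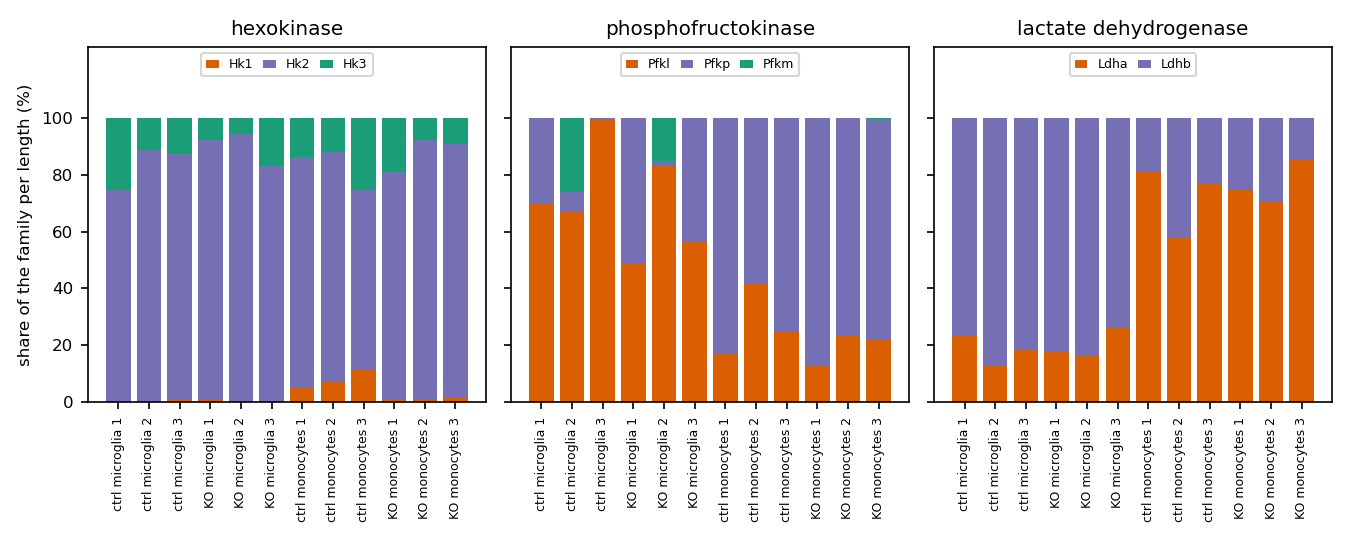
Share of each isoenzyme in the hexokinase, phosphofructokinase and lactate dehydrogenase RNA of the 12 Cre libraries, per transcript length. Ldha takes 57.6% to 85.5% in the 6 monocyte libraries and 12.5% to 25.9% in the 6 microglia libraries, and Hk1 is visible mainly in control monocytes.

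The transporters did not pass the test in either genotype. Slc2a1, the basal glucose transporter, had log2 folds of 1.21 and 0.98, Slc16a3, the lactate exporter MCT4, 0.93 and 0.95, and Slc2a3, a high-affinity glucose transporter, -0.28 and -0.09, with limma adjusted p of 0.367 or more in the control contrast. Slc16a3 was at 37.3 in control monocytes 2, against 506 and 609 in the other control monocytes and 66.8 to 189 in control microglia.

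Of the 3 regulatory kinases, 1 was called in each genotype, both lower in monocytes. Pdk1, the kinase that shuts pyruvate out of the mitochondria, fell in control monocytes. It was at 996, 575 and 809 in control microglia against 92.4, 151 and 15.3 in control monocytes (log2 fold -3.66, SE 0.82, limma adjusted p = 0.0203). In KO mice it was at 1104, 408 and 2004 against 907, 555 and 622, with overlapping groups (log2 fold -0.51, SE 0.82). Without control microglia 1 or control microglia 3 the control call was lost (adjusted p = 0.0670 and 0.0626).

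Pfkfb4, which sets the level of the phosphofructokinase activator fructose 2,6-bisphosphate, was called lower in KO monocytes than in KO microglia. It was at 53.8, 150 and 187 in KO microglia and at 0.868, 0 and 0 in KO monocytes, where all libraries together held 1 read, and at 0, 194 and 12.8 in control microglia and 33.2, 143 and 410 in control monocytes (log2 fold 3.18, SE 1.75, limma adjusted p = 0.353). KO monocytes were thus the only group of the Cre table with all libraries at or near 0, though control microglia 1 was at 0 as well. The fitted log2 fold was -6.56 (SE 1.75, limma adjusted p = 0.0437). By counts alone, the ratio of KO microglia to KO monocytes was 678 with an exact 95% interval of 121 to 26857, which covers counting error only. The call was lost without any 1 library (adjusted p 0.0862 to 0.141) and with the animal as a block (0.0531). Pfkfb3, the isoform of most cells, had log2 folds of -1.18 and -1.64 in control and KO mice (limma adjusted p = 0.199 and 0.0679).

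Hif1a and the oxygen sensors Egln1 and Egln3 were not called. Hif1a was at 1212 to 1653 in control microglia and 2666 to 2798 in control monocytes (log2 fold 0.93, SE 0.41, limma adjusted p = 0.239), and overlapped in KO mice (0.66). Egln1, the main prolyl hydroxylase, had log2 folds of 0.26 and -0.31, and Egln3, a hydroxylase that HIF itself induces, 3.10 and 0.86 with wide spreads. Among the mitophagy receptors, Bnip3 was at 513, 1083 and 1054 in control microglia and 3841, 1683 and 1958 in control monocytes, and at 1211, 743 and 978 against 3734, 2071 and 3591 in KO mice. Bnip3 had no overlap in either genotype, and its call in KO mice (log2 fold 1.66, SE 0.44, limma adjusted p = 0.0438) held only without KO monocytes 2 and was lost with the animal as a block (adjusted p = 0.0507), while the control fold of 1.48 had adjusted p = 0.0744. Bnip3l, its relative, had log2 folds of -0.12 and -0.37; it has a pseudogene copy.

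Ndrg1, a stress-induced gene long used as a hypoxia marker, had the largest fold of all members in both genotypes. It was at 3.52, 62.0 and 3.42 in control microglia against 1368, 1690 and 863 in control monocytes, and at 3.65, 5.62 and 0 in KO microglia against 386, 815 and 1503 in KO monocytes. All 6 monocyte libraries lay above all 6 microglia libraries, with log2 folds of 6.87 (SE 1.22, limma adjusted p = 0.00577) and 7.96 (SE 1.22, limma adjusted p = 0.00233). Control microglia 2, at 62.0, stood above the other 5 microglia libraries. Ndrg1 had 4, 3 and 0 reads in KO microglia and 5, 63 and 4 in control microglia. The size of its folds, above all in KO mice, thus depends on the 1 added to each value. It reached the filter value in all 6 monocyte libraries and in control microglia 2 only, so it was tested chiefly through the population where it is high.

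Mxi1, a MAX-binding antagonist of MYC that HIF induces, was at 26.0, 329 and 30.8 in control microglia and 840, 2052 and 974 in control monocytes (log2 fold 4.18, SE 0.85, limma adjusted p = 0.0122). In KO mice it was at 607, 286 and 342 against 795, 807 and 1147, also without overlap but with a log2 fold of 1.21 (SE 0.85). Control microglia 2 was far above the other 2 control microglia libraries, and all 3 KO microglia lay near it or above it.

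Adm, the precursor gene of the vasodilator peptide adrenomedullin, was low everywhere but showed a set of values in KO microglia. It was at 23.7, 43.1 and 17.2 there, and at most 1.28 in each of the other 9 Cre libraries. The KO contrast was called (log2 fold -4.40, SE 0.94, limma adjusted p = 0.0156), from 69 reads in KO microglia and 3 in KO monocytes. The ratio by counts was 43.8 (exact 95% interval 14.4 to 218, counting error only). Adm reached the filter value of 10 only in KO microglia libraries, so it was tested only through the group where it is high. The call is thus not independent of the filter and is given as a description. Without KO monocytes 1 or KO monocytes 3 the adjusted p was 0.0591 and 0.0580, and DESeq2 gave 0.200. Of the other hypoxia-induced members, Ankrd37, a HIF target with ankyrin repeats, had log2 folds of 5.94 and 3.70, Ddit4, an mTORC1 inhibitor, 3.30 and 2.75, and the collagen prolyl hydroxylase subunits P4ha1 and P4ha2 between -0.33 and 0.59, none called.

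**Figure D2:**
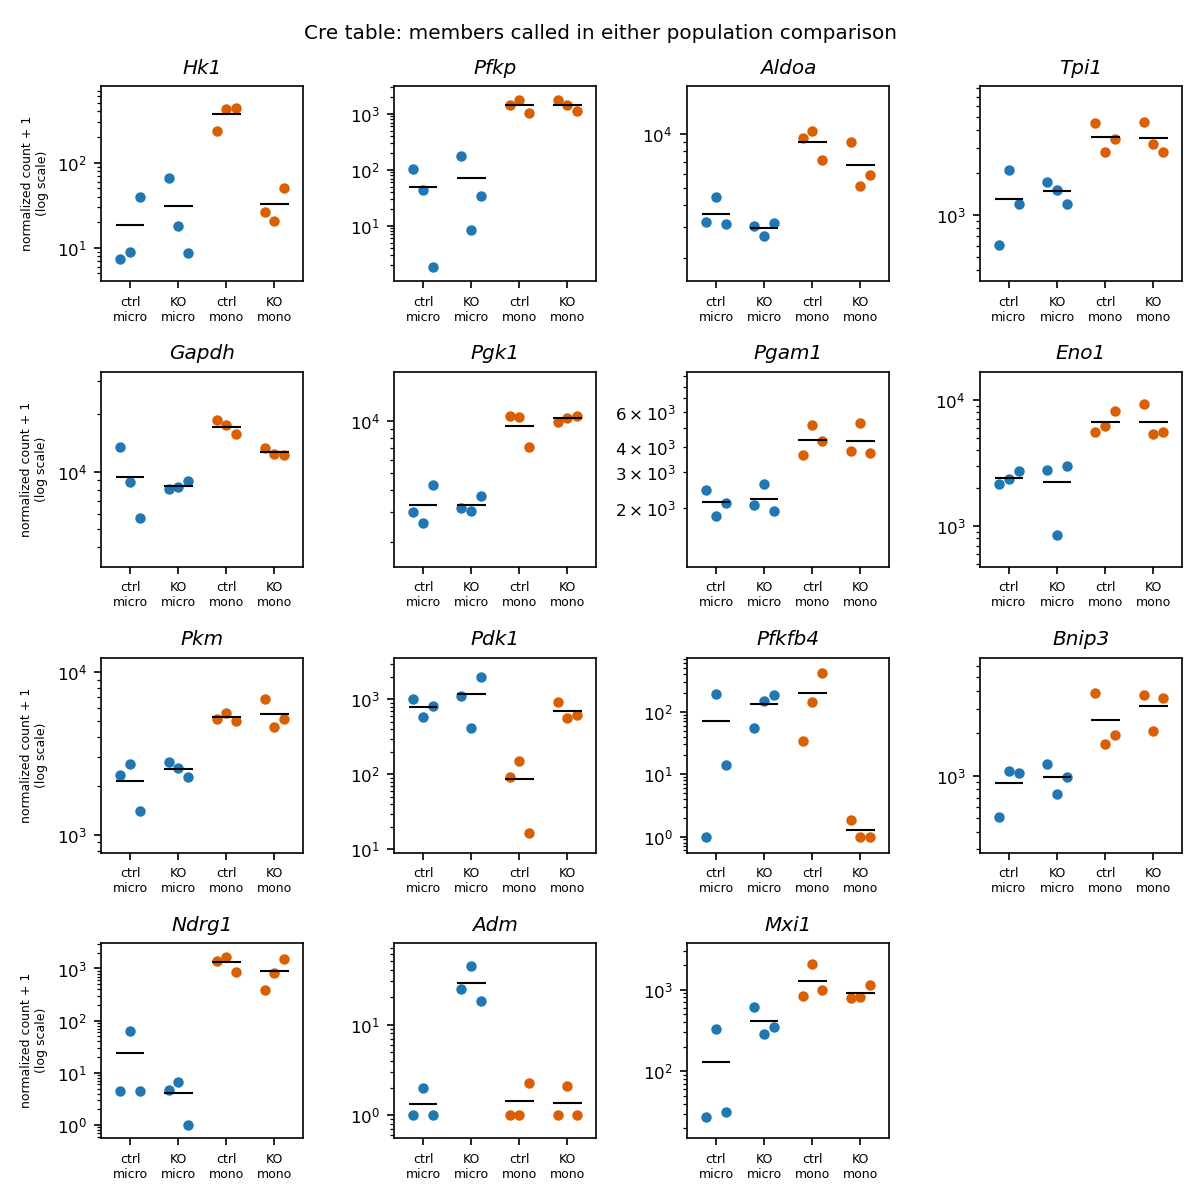
Normalized counts plus 1, on log axes, of the 15 members called in either population contrast, 1 point per library and a line at the group mean (blue, microglia; orange, monocytes; 3 libraries per group). Ndrg1 and Pgk1 separate the populations in both genotypes, Hk1 is high only in control monocytes, Pdk1 is low only there, Adm is high only in KO microglia and Pfkfb4 is at or near 0 in all KO monocytes.

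Markers of other cells were followed in the same libraries. The 13 neutrophil markers summed to 18372 to 42544 in control and 40471 to 78406 in KO monocytes, against 908 to 1924 and 1374 to 4032 in control and KO microglia, so that the populations were apart and the genotypes overlapped; Elane and Mpo were at 0 in every control monocyte library, and 9 of the 13 were at 0 in all control microglia. Of 7 erythroid markers 3 were in the table. In control mice their sums were apart, at 701 to 2090 in microglia and 0 to 270 in monocytes. In KO mice they overlapped, at 397 to 3516 in microglia and 2.63 to 1520 in monocytes. KO monocytes 2 had a lymphocyte marker sum of 1161, against 88.5 and 92.2 in the other KO monocytes and 22.1 to 61.4 in control monocytes. The 7 astrocyte markers summed to 1715 to 2959 in microglia and 214 to 2664 in monocytes, and overlapped between the populations in both genotypes. The part of these cells in the values above was not tested.

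Of the related genes, 65 were tested in the Cre table, from lists of further glycolytic enzymes, pyruvate entry, pentose phosphate and glycogen, oxygen sensing and other hypoxia targets. In control mice 2 rose and 2 fell, and in KO mice 5 rose and 2 fell. Of all tested genes 3.46% rose and 3.06% fell in control mice, and 3.85% rose and 2.98% fell in KO mice. The counts in control mice and the count of falls in KO mice are thus near the share of all genes. Hilpda, a lipid droplet protein induced by hypoxia, rose by log2 4.43 (SE 0.84) and 3.54 (SE 0.84), and Bhlhe40, a transcriptional repressor of the clock and hypoxia responses, rose by 5.81 (SE 1.39) and 8.84 (SE 1.39). Their limma adjusted p were 0.00827 and 0.0259 for Hilpda, and 0.0272 and 0.00265 for Bhlhe40. Plod1, a collagen lysyl hydroxylase, fell with Ldhb in both genotypes (-2.70 and -3.41, limma adjusted p = 0.0475 and 0.0154), though its control call was lost with the animal as a block (0.0571). In KO mice the glycogen phosphorylase Pygl (3.30), the elongin B gene Elob (1.39) and the oxidoreductase Ero1l (2.56) also rose, with limma adjusted p of 0.0262, 0.0292 and 0.0415. With edgeR the KO calls of Pygl and Ero1l were lost (edgeR adjusted p = 0.0556 and 0.0815). The control calls of Bhlhe40 and Plod1 were lost there as well (edgeR adjusted p = 0.0594 and 0.106). The pyruvate entry genes had no call among 11 tested, with median log2 folds of -0.24 and 0.19.

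The next comparison asked whether monocytes of KO and control mice differ. It uses the same monocyte libraries as the contrasts above, so its values are not independent of them. No member was called by limma. Of the 33 members 3 had an unadjusted limma p under 0.05, as had 756 of all 12432 tested genes. Members called numbered 0 in edgeR and 3 in DESeq2. Of all tested genes limma called 0.0402% higher and 0.00% lower, and DESeq2 1.52% and 1.29%. The enzymes from Aldoa to Ldha had log2 folds of -0.46 to 0.16, and the widest reach of their 95% intervals was -1.05 to 0.94.

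The 3 were Pdk1, Pfkfb4 and Hk1. Pdk1, at 907, 555 and 622 in KO and 92.4, 151 and 15.3 in control monocytes, had a log2 difference of 3.47 (SE 0.82, limma adjusted p = 0.343). Pfkfb4, at 0.868, 0 and 0 against 33.2, 143 and 410, had -6.68 (SE 1.75, limma adjusted p = 0.397), from 1 read against 428, and Hk1, at 25.2, 19.5 and 50.1 against 238, 428 and 441, had -3.56 (SE 1.14, limma adjusted p = 0.596). None of the 3 overlapped between genotypes, nor did Gapdh, and none of these genes passed the adjustment over all genes in limma. The share of all tested genes without overlap was not counted for this contrast, so the separation is given as a description only. DESeq2 gave adjusted p of 0.00374, 0.000264 and 0.0163 for Pdk1, Pfkfb4 and Hk1. The neutrophil marker sums of these monocytes, given above, overlapped between genotypes, with control monocytes 2 inside the KO range; they were not tested.

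Between microglia of KO and control mice no member was called by limma, and 0 were called by edgeR and by DESeq2. Of all tested genes limma called 0.00804% higher and 0.0241% lower. There were 2 members at an unadjusted limma p under 0.05, beside 439 of all 12432 tested genes. Adm, at 23.7, 43.1 and 17.2 in KO and 0, 0.985 and 0 in control microglia, had a log2 difference of 4.43 (SE 0.94, limma adjusted p = 0.504), from 69 reads against 1. Here too Adm was tested only because KO microglia passed the filter. Mxi1, at 607, 286 and 342 against 26.0, 329 and 30.8, had 2.58 (SE 0.85, limma adjusted p of 1), with control microglia 2 inside the KO range. The lower enzymes had log2 differences of -0.32 to 0.34, with intervals reaching from -1.27 to 1.28.

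Whether the genotype difference itself differed between monocytes and microglia was tested by the interaction term. Limma called no member and 0.00% of all genes in the higher and 0.00% in the lower direction. An unadjusted limma p under 0.05 was reached by 5 members (Pfkfb4, Adm, Pdk1, Hk1 and Mxi1) and by 590 of all 12432 tested genes. Calls of members numbered 0 in edgeR and 1, Pfkfb4, in DESeq2. The term was -9.74 (SE 2.47, limma adjusted p = 0.691) for Pfkfb4 and -4.46 (SE 1.32, limma adjusted p = 0.870) for Adm, on the log2 scale. For Adm it is not independent of the filter, which the gene passed only through KO microglia.

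In Cxcr4-GFP mice the contrast of monocytes and microglia was made in another strain, with another kit and fewer reads. No member of 27 tested was called by limma, with 0.415% of all 7706 tested genes higher and 0.493% lower. At an unadjusted limma p under 0.05 there were 4 members, beside 580 of all tested genes. Member calls numbered 0 in edgeR and 1, Ndrg1, in DESeq2. Ndrg1 was at 0, 5.59, 0 and 0 in GFP microglia and at 122, 109, 275 and 70.3 in GFP monocytes, higher in all 4 pairs. Its log2 fold was 6.31 (SE 1.92, limma adjusted p = 0.150). Pkm was at 269, 239, 122 and 56.3 against 558, 711, 497 and 856, again higher in all 4 pairs, with a log2 fold of 2.13 (SE 0.77, limma adjusted p = 0.308). The groups did not overlap for 5 members higher in monocytes (Pgk1, Pkm, Slc16a3, Egln3 and Ndrg1; 18.5%) and 1 lower (Pfkfb3; 3.70%), against 5.22% and 4.19% of all tested genes. Egln3 and Ndrg1 reached the filter value only in the 4 monocyte libraries, so their lack of overlap is not independent of the filter. The same limit holds for the DESeq2 call of Ndrg1 and for its call in the smaller fit below. The median log2 fold was 1.56 over the members and 0.51 over all genes.

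The 3 libraries of few detected genes bear on this contrast. In them 13 to 20 of the 34 members stood at 0. Without them 2 microglia and 3 monocyte libraries remained. The 2 microglia libraries are of 2 and 5 mice, and the 3 monocyte libraries are of 2, 5 and 1. In that fit 14 members were called higher and 0 lower, where limma then called 8.41% of all tested genes higher and 7.14% lower. The 14 were the enzymes Gpi1 (1.41), Aldoa (1.89), Tpi1 (2.25), Pgk1 (1.88), Pgam1 (1.77), Eno1 (1.33), Pkm (1.46) and Ldha (1.25), the transporters Slc2a1 (1.84) and Slc16a3 (1.74), and Hif1a (1.84), Bnip3 (1.99), Ndrg1 (5.26) and Mxi1 (1.27), with the log2 fold in brackets. Gapdh was not among them and changed sign, from a log2 fold of -1.36 with all libraries to 1.13 without the 3 (limma adjusted p = 0.999 and 0.0782), as did P4ha1, Pdk1 and Pfkfb4 among the 27. It stood at 54.2 and 39.2 in those microglia and at 120, 131 and 67.9 in those monocytes, while GFP microglia 4 had 625. Of the untested members, P4ha2 was at 0 in all 8 libraries, Aldoc at 0 in all microglia, and Pfkm, Pfkp, Slc2a3, Adm and Ankrd37 passed a value of 10 in fewer than 4 libraries; Pfkp was at 40.7, 62.5 and 89.7 in GFP monocytes 1, 2 and 4 and at most 3.87 in microglia. Marker sums of other cells also differed between the GFP populations without overlap. The 7 astrocyte markers summed to 180 to 692 in microglia and 1.32 to 76.0 in monocytes, the 6 endothelial markers in the table to 0 to 70.6 and 89.6 to 317, and the 3 lymphocyte markers to 0 to 0.430 and 4.85 to 25.1. Neutrophil marker sums overlapped (892 to 1461 and 425 to 1956). The part of such cells in the GFP values was not tested.

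**Figure D3:**
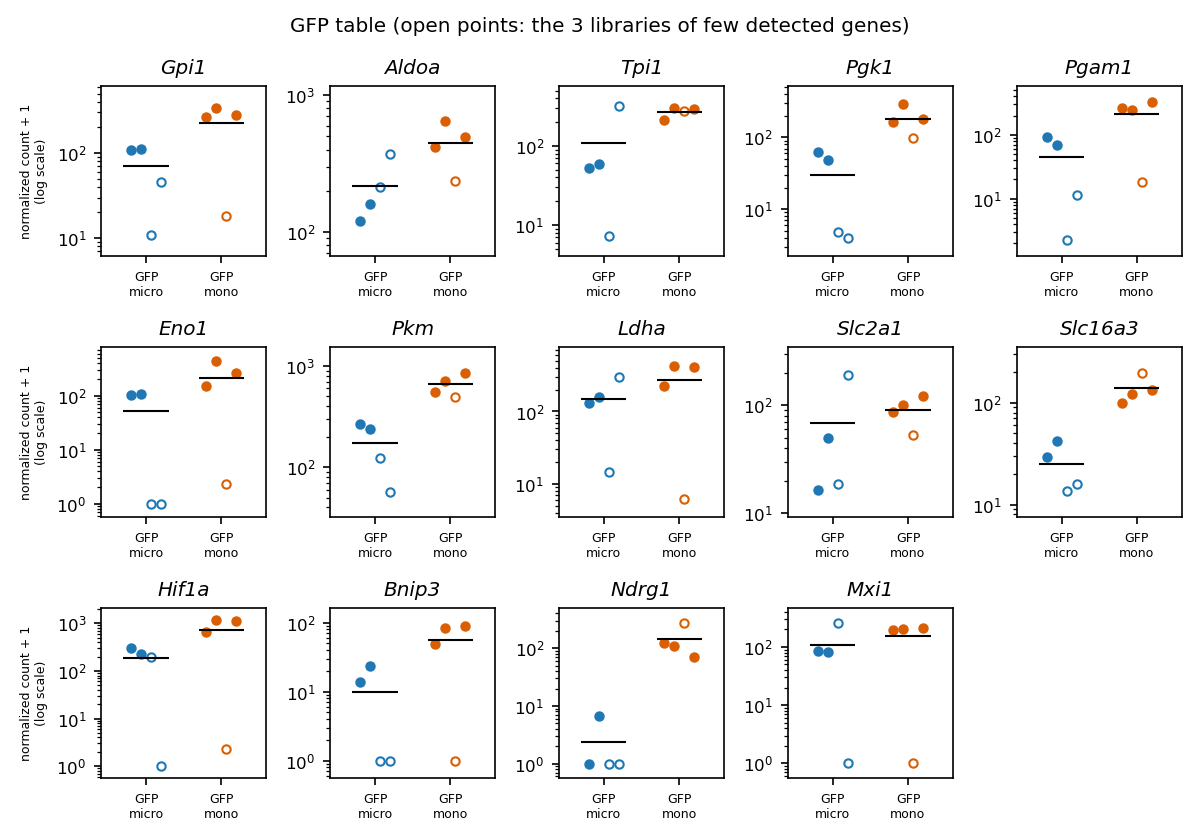
Normalized counts plus 1, on log axes, of the 14 members called in the GFP table without the 3 libraries of few detected genes, 1 point per library, open for those 3, with a line at the mean of all 4. The filled monocyte points lie above the filled microglia points in every panel, and the open points scatter from 0 to beyond the filled ones. The panels were chosen by the fit on the filled points, so this separation is not independent of the choice.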

How the data were processed

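RNA-seq of 20 mouse brain libraries was analysed from the deposited tables. Per the labels' protocols, Nugen Ovation SoLo on total RNA gave the GFP libraries and SMART-Seq2 on polyA RNA the Cre ones. The submitters' processing notes name CASAVA 1.82 and DESeq2 for the first, and bcl2fastq 2.20, kallisto and DESeq2 for the second; the GFP aligner is not given in the sources used here, nor are builds or annotations. The deposited signal is normalized counts, made by the authors by dividing counts by a size factor. All nonzero values (100%) were whole multiples of 1 read to within 0.01 (0.104 to 2.58 normalized counts in GFP, 0.375 to 2.19 in Cre libraries), so whole reads were recovered; 656 altered names were restored. The ribosomal Rn45s took 22.1% to 48.3% of GFP reads.

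Genes reaching 10 in 4 GFP or 3 Cre libraries, 7706 and 12432, were tested as log2(value + 1) with limma 3.58.1 (trend, two-sided, R 4.3.3), with 1 shared spread over the 4 Cre groups, and adjusted over the table. Fits were tested on simulated data. Other settings were no filter, a mean of 50, a pseudocount of 10, edgeR 4.0.16 and DESeq2 1.42.0 on recovered reads, CPM and upper quartile scaling, each library left out, the animal as a block and leaving out 3 libraries. The GFP libraries pair by animal or pool in their titles (correlations of deviations 0.24, 0.20, 0.13 and -0.11); of the Cre mice, 2 control and 2 KO animals gave both populations. Members, lists and tests were chosen with earlier results of these data known. Full values were given for called members or, where none was called, the 2 smallest p; up to 6 called related genes were named. The values of Hk1 between genotypes, Gapdh, Pfkp and Slc16a3 in single libraries were chosen after they were seen. Vegfa was not used here. The exact intervals of ratios by counts use reads summed over the libraries of a group. They cover counting error only and leave out the spread between animals. The reads carry no molecular identifiers. The limma intervals come from the spread between libraries.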

Additional observations from a re-analysis of the deposited data

Results flagged for a closer look

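In the GFP groups of 4 libraries, 9 of 54 checks of a member in a group had 1 library far from the other 3; chance flags about 1 in 20. Of these, 8 were in the 3 libraries of few detected genes. GFP monocytes 3 had Pfkl at 256 (others 46.4 to 77.6), Pfkfb4 at 0 (others 61.9 to 65.4) and Mxi1 at 0 (others 192 to 206). GFP microglia 4 had Tpi1 at 317 (others 6.24 to 58.1), Gapdh at 625 (others 39.2 to 126) and Bnip3l at 0 (others 121 to 145). GFP microglia 3 had Pfkfb3 at 1103 (others 400.1 to 422) and Ddit4 at 67.4 (others 0 to 8.61). The remaining value was Ndrg1 at 5.59 in GFP microglia 2, the library from 5 mice with the most reads of its group, where the other 3 were at 0.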

How the results depend on the processing

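The members called in the contrast of GFP monocytes and microglia went from 0 to 1 with DESeq2, to 14 once the 3 libraries poor in detected genes were left out, and to 15 when the filter was then set to a value of 10 in 2 libraries, an alternative chosen after seeing the data. Leaving out single GFP libraries gave 0 each time. In control mice the 11 calls became 14 with DESeq2, 5 with edgeR and 7 with CPM scaling, and 6 to 9 when 1 library was left out. In KO mice the 9 calls became 12 with DESeq2, 5 without a filter and 4 with edgeR, and 2 to 5 when 1 library was left out. DESeq2 called 3 members between KO and control monocytes and 1 in the interaction term, where limma called 0. With the animal as a replicate block, 0 GFP, 9 control and 6 KO members were called; the block changed no call in the other comparisons. Same-animal Cre libraries had correlations of deviations of -0.06 to 0.01. None of the 11 and 9 called members changed sign in any of the settings run. Of those not called, 8 of 22 in control, 7 of 24 in KO and 8 of 27 in GFP mice changed sign when 1 library was left out, among them Hk1, Pdk1 and Egln3 in KO mice and Bnip3l in control mice. In the KO against control contrasts 19 of 33 did so in monocytes and 13 of 33 in microglia, and in the interaction term 21 of 33. The cause of these differences was not tested. In the GFP table, where 5 libraries held 0.617 to 1.11 M reads, P4ha2 had 0 reads in all 8 libraries and Ankrd37 at most 3; whether depth accounts for this was not tested.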
